A study of Oryctolagus cuniculus with 8 samples.

Results

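FOS, JUN, ZFP36 and DUSP1 are immediate early genes, and their transcripts were followed in the forebrain of preterm rabbit pups. They were found as the array probes that carry one of these names, as a symbol or as a full gene name, and that are not controls. The array held 1 probe for each, so 4 probes of 43603, and all 4 genes were among the 10782 genes or transcripts tested. These genes were selected on their measured values, which had been seen to spread more within saline than within dexamethasone, so their levels, spreads and differences are given below as a description, with no test.

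The samples were RNA of whole forebrain from New Zealand rabbit pups delivered preterm by Caesarean section, at gestational day 29 where term is day 32, and killed at postnatal day 14. The 4 dexamethasone pups received the synthetic glucocorticoid into muscle, at 0.25 mg/kg 2 times daily over no more than 5 days, and the 4 control pups received saline. All 8 samples therefore come from animals born preterm, and no group of pups born at term is among them. The labels call the samples of a group biological replicates, and the title of the series asks how glucocorticoids given after birth act on myelination.

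Immediate early genes are switched on within minutes when a cell is stimulated, without new protein having to be made first, and their RNA is short-lived. In the brain they are widely read as a trace of recent neuronal activity or stress. FOS and JUN proteins pair to form the transcription factor AP-1. ZFP36, also called tristetraprolin, binds AU-rich messenger RNAs and speeds their decay, and DUSP1 is a phosphatase that switches off the MAP kinases which lie upstream of AP-1. ZFP36 and DUSP1 are also known as genes that glucocorticoids can induce.

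Each value below is the light from a single 60-base probe, so the sequences of the JUN, ZFP36 and DUSP1 probes are shown to make plain what each spot could bind. They are written from the 5′ end, as the array's files give them.

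JUN: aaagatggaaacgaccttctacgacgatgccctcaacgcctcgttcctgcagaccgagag

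ZFP36: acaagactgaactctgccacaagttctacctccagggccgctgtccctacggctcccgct

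DUSP1: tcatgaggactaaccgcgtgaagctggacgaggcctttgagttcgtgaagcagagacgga

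In the oryCun2 build the JUN probe (gene ID 100008856) lies at chr13:107997091-107997150 on the plus strand. The ZFP36 probe (gene ID 100340391) lies at chr5:558690-558749 and the DUSP1 probe (gene ID 100340993) at chr3:53839249-53839308, both on the minus strand. The FOS probe (gene ID 100338345) lies at chr20:29860745-29860804 on the minus strand. Of their bases, 60% are G or C in the ZFP36 probe and 55% in each of the others. The longest run of bases that any of them shares with another probe of the array is 14, so no near-identical copy was present. Which exon each probe lies in was not analysed here.

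RNA was measured on 4 arrays, each carrying a pair of samples from one group. Odd-numbered samples were labelled with the dye Cy3 and even-numbered samples with Cy5, so saline 3 and saline 4 shared an array. Between 39.1% and 59.7% of spots were well above background in the saline samples, and between 47.7% and 64.3% in the dexamethasone samples. Spots that the scanner software marked as outliers numbered 932 to 3022 in saline and 197 to 509 with dexamethasone, and the array of saline 3 and saline 4 had the most, at 2486 and 3022. Saline and dexamethasone arrays lay on different slides read on different days, so slide and treatment cannot be told apart. Of the forebrain's cell types, all 7 neuronal, all 8 astrocyte and all 6 oligodendrocyte markers with a probe were well above background in at least 1 sample.

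FOS was at a like, low level in 7 of the 8 samples and far higher in saline 4. Its net intensity, the spot mean minus the local background in scanner units, was 202 in saline 1, 323 in saline 2, 159 in saline 3 and 4171 in saline 4. With dexamethasone it was 272, 269.9, 248 and 209 in samples 1 to 4. Only saline 4 left the range of 159 to 323 that held the other 7 samples, and saline 3, on the same array, was the lowest of all and not well above background. The median over the pixels of the saline 4 spot was 3959 against a mean of 4207, both before background subtraction, and the spot was not marked as an outlier. On the normalised log2 scale the saline samples were at 8.18, 8.34, 8.39 and 11.69 and the dexamethasone samples at 8.29, 7.95, 8.26 and 7.84. The groups overlapped, since saline 1 lay below dexamethasone 1 and dexamethasone 3.

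JUN, the partner of FOS in AP-1, was also highest in saline 4, by less. Its net intensity was 252, 351, 299 and 1119 in saline 1 to 4 and 298, 263, 291 and 264 in dexamethasone 1 to 4. Before normalisation saline 4 alone stood apart, and saline 3 lay within the other samples. The normalised log2 values were 8.51, 8.43, 9.13 and 9.86 in saline and 8.41, 7.91, 8.49 and 8.06 with dexamethasone. Normalised, both saline 3 and saline 4 were above every other sample, while saline 2 lay below dexamethasone 3, so the groups overlapped.

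**Figure D1:**
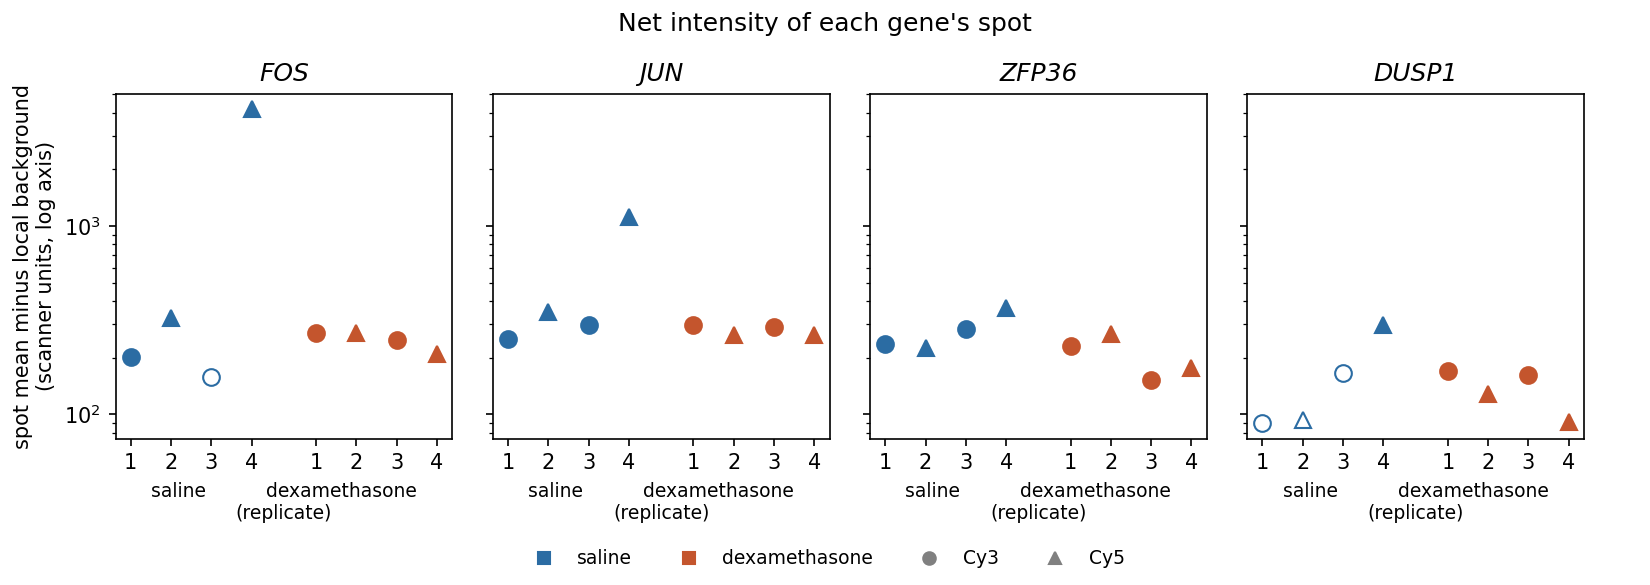
Net intensity of the FOS, JUN, ZFP36 and DUSP1 spots (spot mean minus local background, scanner units, log axis) in each sample, with saline in blue and dexamethasone in orange, Cy3 as circles and Cy5 as triangles, and an open symbol where the spot was not well above background. FOS in saline 4 stands at 4171 and JUN in saline 4 at 1119, whereas the other 7 samples lie between 159 and 323 for FOS and between 252 and 351 for JUN.

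ZFP36 differed less between samples. Its net intensity was 235, 226, 284 and 369 in saline 1 to 4 and 229.7, 268, 152 and 177 in dexamethasone 1 to 4. The 2 lowest readings were those of dexamethasone 3 and dexamethasone 4, and the highest was that of saline 4. After normalisation the saline samples were at 8.35, 7.92, 8.92 and 8.41 and the dexamethasone samples at 8.06, 7.97, 7.58 and 7.76. Here saline 3 was the highest of all, 3 saline samples lay above every dexamethasone sample, and saline 2 lay within the dexamethasone range. The probe was well above background in all 8 samples.

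DUSP1 had a net intensity of 89.9, 93.5, 165 and 298 in saline 1 to 4 and of 169.9, 128, 162 and 90.7 in dexamethasone 1 to 4. Of the 4 saline samples only 1, saline 4, read it well above background, while all 4 dexamethasone samples did, so 3 of its saline values rest on light near background. The dexamethasone values rest on dim light too, since the mark did not follow brightness across arrays. In Cy3, saline 3 at 165 was not marked and dexamethasone 3 at 162 was. In Cy5, saline 2 at 93.5 was not marked and dexamethasone 4 at 90.7 was. The normalised log2 values were 6.91, 7.15, 8.10 and 8.18 in saline and 7.61, 7.29, 7.58 and 7.15 with dexamethasone. The saline samples lay on both sides of the dexamethasone range: saline 3 and saline 4 were above it, saline 1 was below it, and saline 2 was level with its lowest sample.

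**Figure D2:**
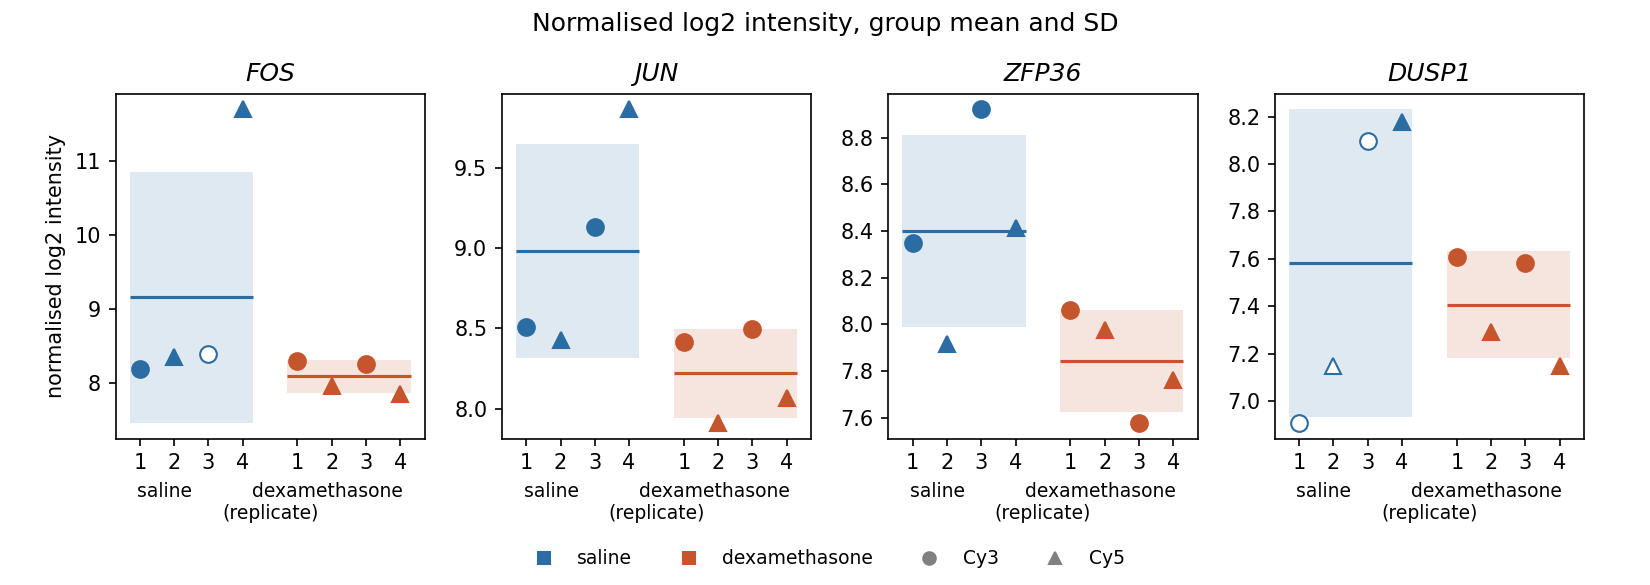
Normalised log2 intensity of the same spots, 1 point per sample, with the line at the mean and the band at 1 SD on either side for the 4 samples of each group; each panel has its own vertical axis, and open symbols are not well above background. The saline values spread more than the dexamethasone values for all 4 genes, and the points that widen them are saline 4 for FOS and JUN, saline 3 above and saline 2 below for ZFP36, and saline 3 and 4 above and saline 1 below for DUSP1.

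The difference between the groups was below 0 for all 4 genes, as it was for 46.5% of all genes tested. The mean of FOS was 9.15 ± 1.70 (SD, n = 4) for the saline pups and 8.09 ± 0.22 (SD, n = 4) for the dexamethasone pups, a log2 difference of -1.07 (SE 0.82), or 0.478 times the saline level. JUN was at 8.98 ± 0.67 (SD, n = 4) and 8.22 ± 0.28 (SD, n = 4), a log2 difference of -0.76 (SE 0.35). ZFP36 was at 8.40 ± 0.41 (SD, n = 4) and 7.84 ± 0.22 (SD, n = 4), a log2 difference of -0.56 (SE 0.23). DUSP1 was at 7.58 ± 0.65 (SD, n = 4) and 7.41 ± 0.22 (SD, n = 4), a log2 difference of -0.18 (SE 0.32). For FOS and DUSP1 the difference was smaller than the SD within saline, and for no gene did the groups separate without overlap, as they did for 14.1% of all genes tested. In the fit over all genes, 0 of the 4 were called, against 7 genes called in all (0.0649%, limma, adjusted p under 0.05). The median difference over all genes was 0.03.

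How far each difference rested on saline 3 and saline 4 differed between the genes. Refitted without saline 4, the log2 difference of FOS was -0.19, that of JUN -0.42, that of ZFP36 -0.55 and that of DUSP1 0.03. Refitted without the array of saline 3 and saline 4, they were -0.17, -0.25, -0.29 and 0.38, and without the array of saline 1 and saline 2 they were -1.96, -1.28, -0.82 and -0.73. FOS thus kept little of its difference once saline 4 was left out, ZFP36 kept nearly all of it, and DUSP1 changed sign.

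**Figure D3:**
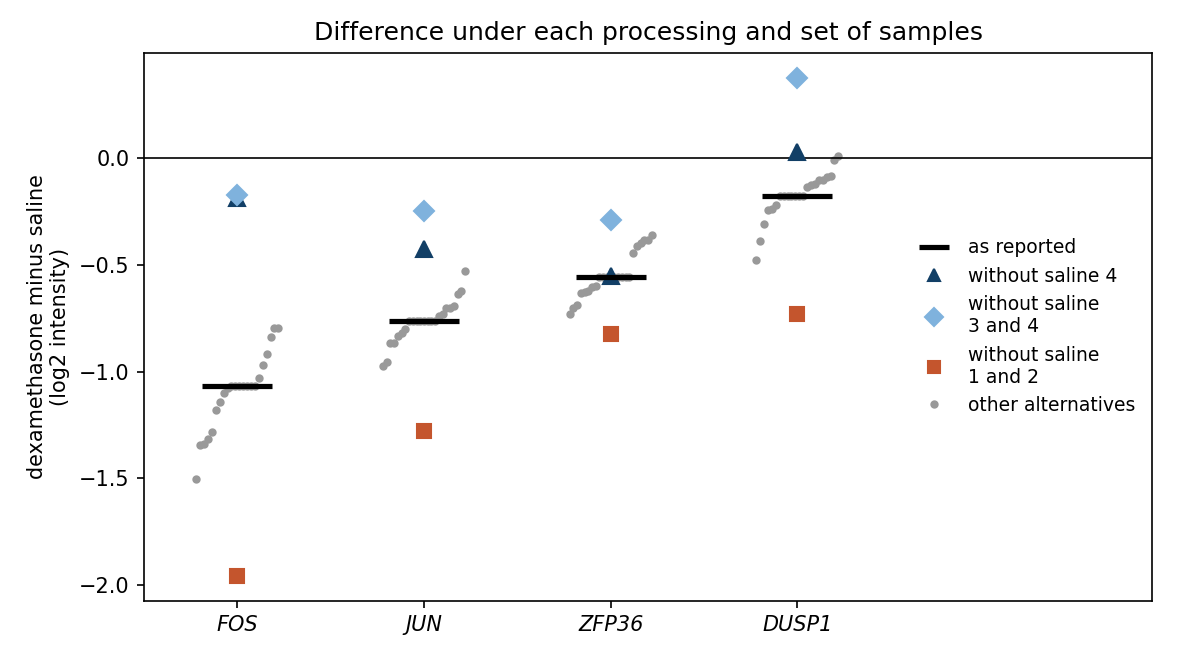
Log2 difference, dexamethasone minus saline, for each gene as reported (black bar) and refitted under the alternatives, with the fits without saline 4, without saline 3 and 4 and without saline 1 and 2 marked and all others as grey dots. FOS moved from -1.07 to -0.19 without saline 4, and DUSP1 ran from -0.73 without saline 1 and 2 to 0.38 without saline 3 and 4.

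All 4 genes had a larger SD within saline than within dexamethasone, which is how they were chosen and which held for 65% of all genes tested. The SD within saline over the SD within dexamethasone was 7.64 for FOS, 2.88 for DUSP1, 2.40 for JUN and 1.88 for ZFP36, and its median over all genes was 1.33. With the dyes pooled, this direction depended on the scale for JUN and DUSP1. From the deposited table the SD within saline minus that within dexamethasone was -0.0105 and -0.064, against 0.39 and 0.42 here. With scaling to the 75th percentile it was 0.081 for DUSP1. Within Cy5 of the deposited table, JUN was at 1.22 and 3.60 in saline and 0.88 and 0.82 with dexamethasone. DUSP1 was at 0.37 and 0.98, and at 0.43 and 0.28. Within Cy3, JUN was at 1.82 and 2.41, and at 1.94 and 1.90, and DUSP1 at 0.72 and 1.25, and at 1.11 and 1.14. Within each dye the saline samples thus lay further apart. The FOS ratio lay above that of 97.4% of all genes, the DUSP1 ratio above 83.9%, the JUN ratio above 77.7% and the ZFP36 ratio above 67.4%. With the dyes pooled, the SD within saline lay above that of 99.6% of genes for FOS, 95.4% for JUN, 95.1% for DUSP1 and 83.9% for ZFP36. Within dexamethasone the 4 SDs, 0.22 to 0.28 with the dyes pooled, lay above those of 67.3% to 80.2% of genes. Without saline 4 the SD within saline was 0.11 for FOS, below its SD within dexamethasone, and 0.39 for JUN, 0.50 for ZFP36 and 0.63 for DUSP1, where the median over all genes was 0.23.

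**Figure D4:**
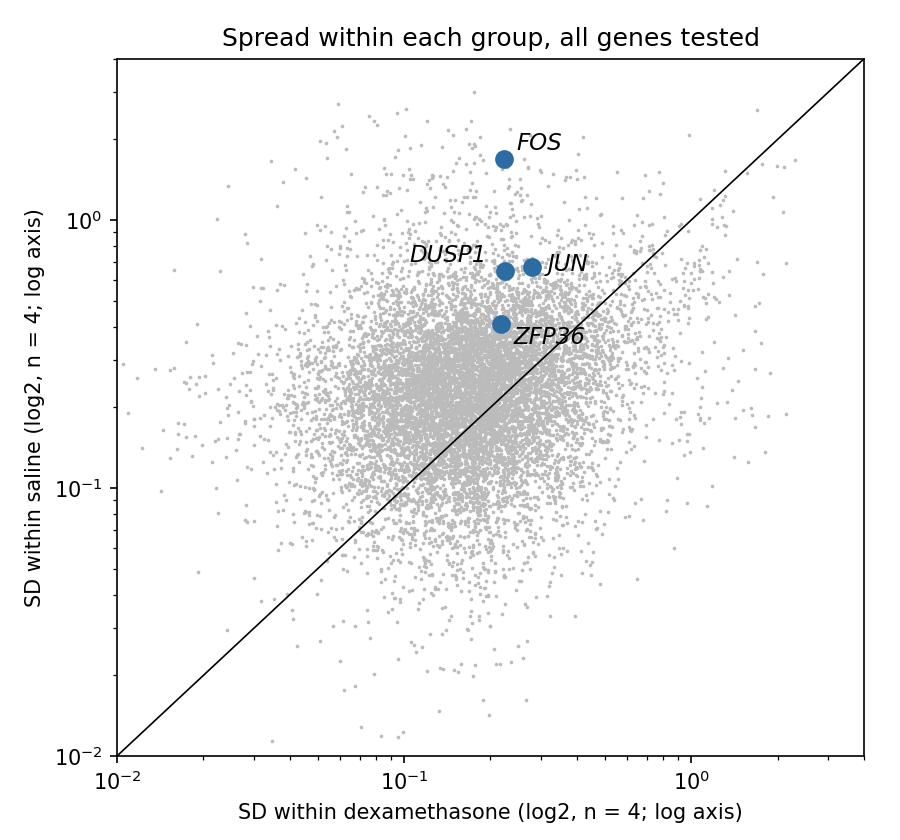
SD of normalised log2 intensity within saline against SD within dexamethasone (n = 4 each, both axes log), 1 grey point per gene tested, with FOS, JUN, ZFP36 and DUSP1 in blue and the line at equal spread. All 4 genes lie above the line, as 65% of all genes do, and FOS lies furthest above it, at 1.70 against 0.22.

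These SDs pool the dyes, so samples of the same dye were also compared with each other. In Cy5, saline 4 exceeded saline 2 by 3.35 log2 units for FOS, 1.44 for JUN, 1.03 for DUSP1 and 0.49 for ZFP36. In Cy3, saline 3 exceeded saline 1 by 0.21 for FOS, 0.62 for JUN, 1.19 for DUSP1 and 0.57 for ZFP36. The same comparisons between dexamethasone samples, sample 3 minus sample 1 and sample 4 minus sample 2, gave -0.04 and -0.11 for FOS, 0.08 and 0.15 for JUN, -0.02 and -0.14 for DUSP1 and -0.49 and -0.21 for ZFP36. Within dye, then, dexamethasone samples differed by at most 0.15 log2 units for FOS, JUN and DUSP1, and by up to 0.49 for ZFP36, against up to 0.57 for ZFP36 in saline. With each dye centred, the SD within dexamethasone was 0.06 for FOS, 0.07 for DUSP1 and 0.09 for JUN. These lay above only 12.2%, 17.4% and 24.0% of genes, whereas that of ZFP36, at 0.27, lay above 79.5%. Centred in the same way, the SD within saline lay above 99.3%, 96.4%, 96.4% and 81.5% of genes for FOS, DUSP1, JUN and ZFP36.

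Saline 4 was the highest of the 4 Cy5 samples for all 4 genes, as it was for 31.8% of all genes tested, and saline 3 was the highest of the 4 Cy3 samples for all 4, as it was for 28.6%. Both held at once for all 4, against 18.1% of all genes. For FOS the place of saline 3 depended on the scale: its excess there was -0.16 in the scanner's processed signals and -0.38 in the deposited table, where saline 3 was the highest of its dye for 3 of the 4 genes. Against the mean log2 value of the other 3 Cy5 samples, saline 4 was higher by 3.65 for FOS, 1.73 for JUN, 0.98 for DUSP1 and 0.53 for ZFP36, which is 12.5, 3.31, 1.97 and 1.44 times. An excess of over 1 log2 unit was reached by FOS and JUN, and by 1.41% of all genes. FOS had the highest excess in saline 4 of all 10064 genes with a value there, and JUN ranked 48. In the scanner's own processed signals FOS ranked 3, with an excess of 4.23, and its rank was 2 in the authors' deposited table, with an excess of 3.84. The values in that table, relative to a median of 1 in each sample, were 13.2 for FOS in saline 4 and 0.667 to 1.17 in the other Cy5 samples. In saline 3 the excess over the other Cy3 samples was 0.15 for FOS, 0.66 for JUN, 0.73 for DUSP1 and 0.93 for ZFP36.

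As a description over the 8 samples with each dye centred, the 4 genes varied together to unequal degrees. Pearson's r was 0.938 for FOS and JUN, 0.795 for JUN and DUSP1, 0.730 for FOS and DUSP1, 0.637 for JUN and ZFP36, 0.512 for ZFP36 and DUSP1 and 0.447 for FOS and ZFP36. Without saline 4 these became 0.691, 0.519, 0.333, 0.674, 0.336 and 0.269, so ZFP36 and JUN were the pair that did not depend on that sample. The 8 points are pairs of samples that share arrays, and for FOS they fall into saline 4 and the rest.

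Other immediate early genes were taken from lists of transcription factors and of effectors. Of 25 listed transcription factors 6 were tested, of which 3 lay above 0 and 3 below, and of 28 effectors 15 were tested, of which 5 lay above and 10 below. None of these 21 genes was called (limma, adjusted p under 0.05), and 0 of them had an unadjusted p under 0.05. Of all 10782 genes tested, 1505 had one, and the counts given for the lists below are to be set against that share. Their median difference was -0.12. With FOS, JUN, ZFP36 and DUSP1 included it was -0.26 over 25 genes, against 0.03 over all genes tested. Without saline 4 it was -0.04 with the same probes and -0.13 over 26 genes when probes were filtered and chosen anew. Without saline 3 and saline 4 it was -0.07 both ways, over 24 and 25 genes. For the genes other than FOS, JUN, ZFP36 and DUSP1, with the same probes, the median without saline 4 was -0.003 over 21 genes. Without saline 3 and saline 4 the median of those other genes was -0.06 over 20 genes. In this bulk RNA, fewer cells that express a gene and less of its RNA per cell cannot be told apart.

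Among the transcription factors EGR1, a zinc finger factor that is induced by growth factors and synaptic activity, had the clearest excess in saline 4. Its log2 values were 7.55, 7.66, 7.53 and 8.63 in saline and 7.54, 7.44, 7.73 and 7.35 with dexamethasone. Saline 4 stood 1.15 above the mean of the other Cy5 samples, and saline 3 did not stand out, as for FOS. The orphan nuclear receptor NR4A1 followed another course, with 9.45, 9.03, 9.04 and 9.15 in saline and 8.40, 8.68, 9.02 and 8.86 with dexamethasone. Every saline sample lay above every dexamethasone sample, though saline 2 and dexamethasone 3 were next to each other. The difference was -0.43 (SE 0.19, adjusted p = 0.362 by limma), and without saline 3 and saline 4 it was -0.50. The FOS relative FOSL2 differed by -0.29 (SE 0.18) and NR4A2 by 0.16 (SE 0.34).

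Among the effectors, saline 4 was over 1 log2 unit above the other Cy5 samples for BTG2, an antiproliferative factor, at 2.19, and for PTGS2, the inducible cyclooxygenase, at 2.17. The same held for DUSP6, an ERK phosphatase, at 2.16, for CCN1, a secreted matrix protein, at 1.64, for GADD45A, a growth arrest and stress protein, at 1.49, and for ERRFI1, an inhibitor of the EGF receptor, at 1.05. With EGR1 these are 7 of the 18 other immediate early genes whose probe had a value in all 4 Cy5 samples, against 1.41% of all genes. Each count uses 1 probe per gene. Probes too dim to be kept gave 0.35 for EGR1 and 0.59 for PTGS2, whose other kept probe gave 1.87. ERRFI1 ran from 0.55 to 1.07 over 4 kept probes, and the probes of DUSP6 and GADD45A are described below. The spots around these 7 genes are given below. Saline 4 was the highest of its dye for 15 of the 18 (31.8% of all genes), saline 3 for 9 of 21 (28.6%), and both at once for 8 of 18 (18.1%). Spots around those 8 genes in saline 3 are also given below. Not every such gene was high in saline 4: BDNF, a neurotrophin, was at -0.89 by the probe that could be compared, and MYC, a growth factor-induced transcription factor that was not tested, ran from -0.42 to 0.59 over 3 probes.

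PTGS2 gave 7.75, 8.11, 8.48 and 9.95 in saline and 7.40, 7.62, 7.86 and 7.63 with dexamethasone, a difference of -0.95 (SE 0.44, adjusted p = 0.368 by limma). DUSP6 gave 7.79, 7.41, 10.94 and 9.53 in saline and 7.45, 7.39, 7.73 and 7.33 with dexamethasone, a difference of -1.44 (SE 0.69, adjusted p = 0.376 by limma). In both genes saline 3 and saline 4 were the highest samples. The DUSP6 excess came from 1 of its probes: over the 3 kept probes the excess in saline 4 ran from 0.15 to 2.16 and in saline 3 from -0.52 to 3.29. GADD45A was even across its probes, with 1.49 to 1.89 in saline 4 over the 4 that had a value there. RGS2, a regulator of G protein signalling, differed by -0.45 (SE 0.20, adjusted p = 0.359 by limma) and CCN1 by -0.70 (SE 0.35, adjusted p = 0.389 by limma).

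Some immediate early genes were too dim to be tested. NPAS4, a transcription factor that neurons make on depolarisation, had 5 probes, none of which was well above background in more than 3 of 8 samples. All 5 were well above background in saline 4, as were 59.7% of all spots there. That share includes bright spots, and the share among probes as dim as these was not counted. The same held for 4 of the 5 probes of ATF3, a stress-induced partner of JUN, and for the probes of IER3, DUSP5, EGR2 and EGR4. No size is given, since most of the samples they would be set against lay at background. FOSL1, a relative of FOS, and MAFF were well above background in 0 of 8 samples.

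**Figure D5:**
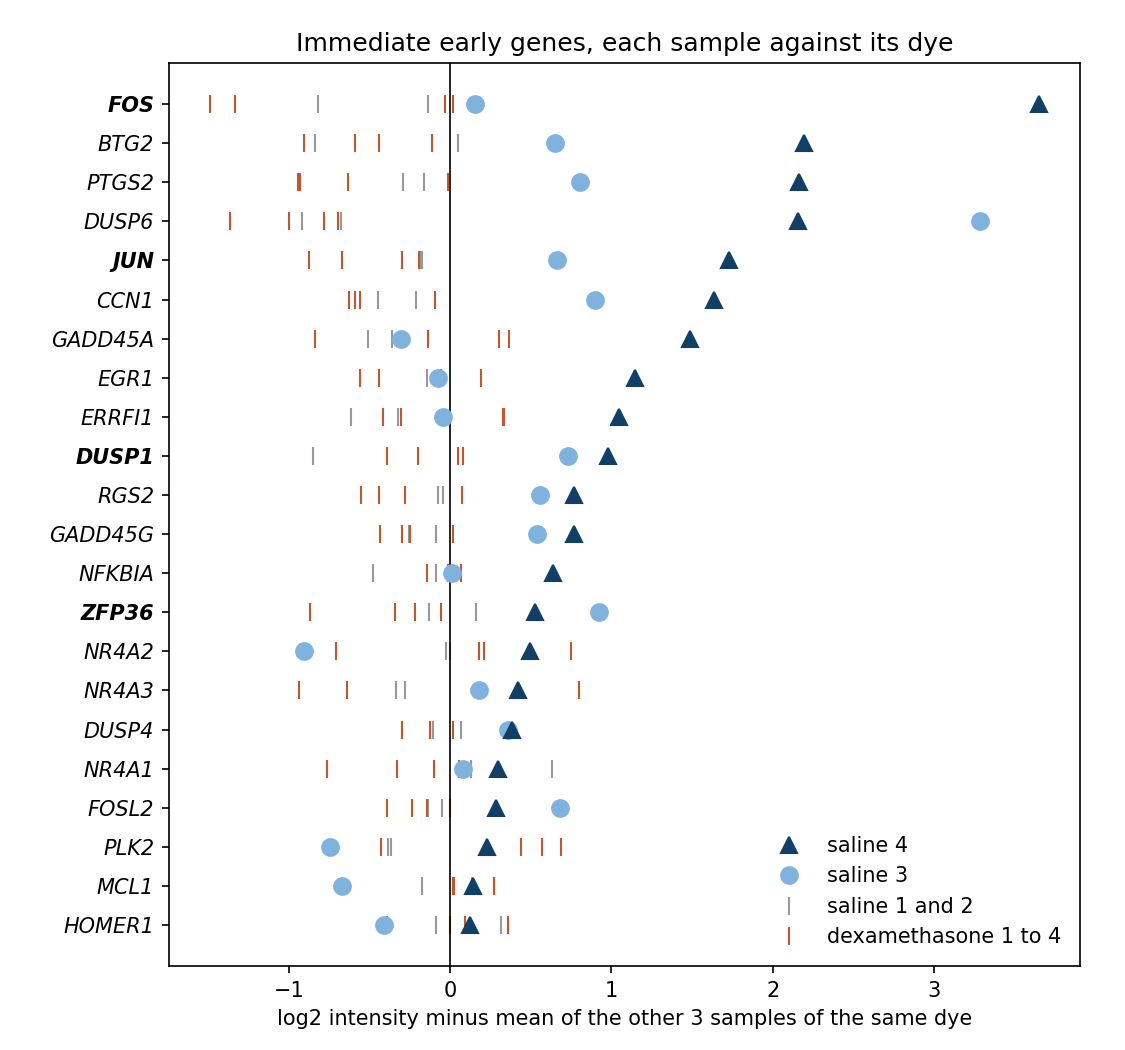
Log2 intensity of each sample minus the mean of the other 3 samples of its dye, for the 22 immediate early genes whose probe had a value in all 4 Cy5 samples, ordered by saline 4 (dark triangles), with saline 3 as light circles, saline 1 and 2 as grey ticks and dexamethasone as orange ticks; FOS, JUN, ZFP36 and DUSP1 are in bold. Saline 4 lies to the right of 0 for the genes drawn, from 0.12 for HOMER1 to 3.65 for FOS, and saline 3 lies on both sides.

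Because saline 3 and saline 4 shared an array with many outlier spots, the spots around each gene's spot, up to 5 rows and 5 columns away, were read as well. Around FOS the median excess in saline 4 was 0.03 and 0 of 115 spots exceeded 1 log2 unit. Around JUN it was 0.06 with 1 of 110 spots, around ZFP36 0.08 with 3 of 96 and around DUSP1 -0.15 with 0 of 103. In saline 3 the numbers of surrounding spots over 1 log2 unit were 0 of 117 for FOS, 0 of 112 for JUN, 13 of 99 for ZFP36 and 5 of 100 for DUSP1, where 2.66% of all spots passed in saline 3 and 1.17% in saline 4. The FOS, JUN and DUSP1 spots thus stood above their surroundings in saline 4. The ZFP36 spot lay where more spots were high than on the whole array, in both samples, and so did the DUSP1 spot in saline 3. Around CCN1, 11 of 111 spots in saline 4 and 24 of 112 in saline 3 exceeded 1 log2 unit. Around PTGS2 it was 3 of 106 and 12 of 103. In saline 4 it was 2 of 106 around DUSP6, 1 of 111 around EGR1 and 1 of 116 around ERRFI1. There it was 0 of 113 around GADD45A and 0 of 105 around BTG2. Of the other genes highest of their dye in both samples, RGS2 had 13 of 105 such spots around it in saline 3 and GADD45G 10 of 113. In saline 3 it was 2 of 116 around FOSL2, 2 of 105 around DUSP6, 0 of 112 around DUSP4 and 0 of 110 around BTG2.

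Genes other than immediate early genes were also high in both samples of that array. Of the 15 genes or transcripts with the highest excess in saline 4, IRX6, CEP68, VIPR1, ZNF142 and SHPK were higher still in saline 3, by 4.94, 4.63, 4.26, 3.16 and 3.75. FOS and CCL2, a chemokine, were not, at 0.15 and 0.74. Neither were transcripts without a symbol that stood at 1.76 and 0.88 in saline 3, against 2.58 and 2.42 in saline 4. What set the values of this array apart was not tested.

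Marker lists of other cell types were summed as the mean deviation of their tested genes from each gene's own mean. The 25 immediate early genes scored 0.75 in saline 4, 0.19 in saline 3 and from -0.29 to -0.06 in the other 6 samples. That score includes FOS, JUN, ZFP36 and DUSP1, which were chosen on their spread within saline, and none was formed without them. Markers of microglia and macrophages, 5 tested of 13 listed, scored 0.31 in saline 4 and 0.22 in saline 3, against -0.12 and -0.14 in saline 1 and saline 2 and -0.20 to 0.08 with dexamethasone. PTPRC and CD74 of that list were well above background in 0 of 8 samples. Markers of blood, 6 tested of 11, scored 0.51 in saline 4 but -0.41 in saline 3, with 0.22 as the highest of the other samples, and CD3E was not well above background in any. Neuronal markers, 5 tested of 11, scored -0.15 in saline 4 and -0.10 in saline 3, within the -0.37 to 0.27 seen with dexamethasone. Markers of astrocytes (7 of 10) scored -0.14 and 0.10, of oligodendrocytes (4 of 13) 0.08 and 0.04, and of meninges and choroid plexus (9 of 11) 0.14 and -0.07. Those of endothelium and pericytes (6 of 12) scored 0.07 and -0.45. PECAM1, KDR, FLT1 and PDGFRB of that list, and AQP1 of the meninges and choroid plexus list, were not well above background in any sample. The microglial score was highest in saline 4 and saline 3, and the blood score in saline 4, where the score of the 25 genes was high too. The part of these cells in the values was not tested.

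Kinases and partner proteins act upstream of or beside AP-1. Of 23 listed 14 were tested, 10 lay above 0 and 4 below, where 5769 of all 10782 genes lay above, and 0 were called (limma, adjusted p under 0.05, with 1 at an unadjusted p under 0.05). The median was 0.08. MAP2K4, a kinase that activates JNK, lay between 7.46 and 8.18 in saline and between 8.24 and 8.52 with dexamethasone, with no overlap and a difference of 0.58 (SE 0.18, adjusted p = 0.326 by limma). In saline, 2 of 4 samples read it well above background. ATF2, a partner of JUN, differed by 0.53 (SE 0.23) and MAPK8, the kinase JNK1, by 0.41 (SE 0.18), and neither passed.

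Transcripts known to be bound by ZFP36 were few on the array above background, with 4 tested of 13 listed, and 0 were called (limma, adjusted p under 0.05, with 1 at an unadjusted p under 0.05). The median was -0.73, with 3 below 0 and 1 above. The 4 were CXCL8, CCL2, IFNG and PTGS2, which is also counted among the effectors above. PTGS2 differed by -0.95 (SE 0.44) and CCL2 by -0.90 (SE 0.60). Saline 4 was above the mean of the other Cy5 samples by 2.17 for PTGS2 and 2.81 for CCL2. The chemokine CXCL8 lay between 8.15 and 8.52 in saline and between 7.67 and 7.97 with dexamethasone, without overlap and with no sample standing apart. Its difference was -0.57 (SE 0.16, adjusted p = 0.308 by limma). CCL2 was at 7.65, 7.65, 8.28 and 10.55 in saline and at 7.49, 7.82, 7.48 and 7.74 with dexamethasone. It was high in saline 4 as FOS was, and well above background only in the 4 Cy5 samples. IFNG, the interferon gamma gene, lay between 6.55 and 7.75 in saline and between 7.88 and 8.11 with dexamethasone, a difference of 0.58 (SE 0.29), and was well above background in 2 of 4 saline samples.

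Of 13 listed dual-specificity phosphatases, the family of DUSP1, 3 were tested besides it, and none was called (limma, adjusted p under 0.05, with 0 at an unadjusted p under 0.05). DUSP6 is given above, DUSP4 differed by -0.26 (SE 0.15) and DUSP14 by 0.10 (SE 0.17). DUSP4 was highest in saline 3 and next highest in saline 4, as 7.68, 7.37, 7.90 and 7.74 in saline 1 to 4.

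Genes known to be induced by glucocorticoids were set beside ZFP36 and DUSP1. Of 16 listed 9 were tested, 7 lay above 0 and 2 below, and 0 were called (limma, adjusted p under 0.05, with 1 at an unadjusted p under 0.05). The median was 0.11, against -0.56 for ZFP36 and -0.18 for DUSP1. TXNIP, an inhibitor of thioredoxin, differed by 0.92 (SE 0.39, adjusted p = 0.354 by limma), and DDIT4, which restrains mTOR signalling, by 0.79 (SE 0.36, adjusted p = 0.364 by limma). TSC22D3, whose protein GILZ is a known mediator of glucocorticoid action, differed by 0.31 (SE 0.17), ANGPTL4 by 0.15 (SE 0.15) and SGK1 by 0.08. Like DUSP1, the genes TSC22D3, DDIT4 and SGK1 were well above background in fewer saline than dexamethasone samples, 2 of 4 against 4 of 4, but so were MAP2K4, MAPK8 and IFNG of the other lists.

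The genes whose pattern over the 8 samples, with each dye centred, was most like that of each gene were sought among 5525 with a symbol and all 8 values. Nearest to FOS were SFSWAP, ZFYVE27 and EGR1, with Pearson's r of 0.989, 0.988 and 0.978, which became 0.727, 0.669 and 0.695 without saline 4. Only EGR1 of these had an excess in saline 4 of over 1 log2 unit. Nearest to JUN were PTGS2 (0.990), CEP76 (0.985) and DUS2 (0.978). Nearest to ZFP36 were TUBA8, CCNO and TRIM17, at 0.987 to 0.990, and nearest to DUSP1 were MLLT10, DCAF7 and HYAL2, at 0.981 to 0.986, which held at 0.968 to 0.977 without saline 4. Nearest to the mean of all 4 were SEPHS1 (0.985), FAM135A (0.980), TTC17 (0.979), TJP1 (0.978) and CASD1 (0.973). PTGS2 and EGR1 were the immediate early genes among these 17, and with 8 samples that share arrays such values describe these samples only.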

How the data were processed

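Forebrain RNA of 4 saline and 4 dexamethasone pups was measured on Agilent 2-colour arrays of design 020908. The deposited scanner files give spot intensity (mean, median, local background) and processed signal per dye, from Agilent Feature Extraction. Its version is 10.7.3.1 in the submitters' processing notes but 11.0.1.1 per the file headers. The authors' deposited table gives a signal per spot, the median minus the background median divided by a constant per sample. Both samples of an array have the same file, and each was read from its own dye.

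Mean minus background intensity was corrected with normexp (offset 50). A few spots with a very high local background distort its fit: fitted on all spots, the background mean was -787 to -117 on the saline arrays and -31.3 to 23.1 on the dexamethasone arrays. Fitted on spots not marked as background outliers it was 2.40 to 21.6 and 2.27 to 22.3. The latter was used, a choice made after the data were seen. Arrays were then normalised by loess, giving outlier and control spots weight 0, and by Aquantile across arrays. Outlier spots were left out and 0 spots were saturated. A probe was kept when 4 or more of the 8 samples read it well above background (23168), a gene was its probe with the highest mean, and at least 3 values per group were needed. A RefSeq gene table (assembly mOryCun1.1) gave a symbol to 22541 of 43603 probes.

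limma 3.58.1 in R 4.3.3 (lmFit, eBayes) fitted dye as covariate and array as random block (correlation 0.260), with Benjamini-Hochberg adjustment over 10782 genes. The fit was tested on simulated data. Named genes are the 4 chosen, up to 4 tested genes of smallest p per list, and the 3 (for the mean of the 4, 5) most correlated genes. Of these, 1 gene is not reported here. Others, such as BTG2, GADD45A, ERRFI1, NPAS4, IER3, ATF3, FOSL1, HOMER1, NFKBIA, SGK1, BDNF, MYC and the high genes of the saline 3 and 4 array, were named after their values were seen. The 4 genes, the lists and the tests were chosen with earlier results of these data known. The spots around each gene were read after the values were seen. Nothing says whether littermates were used, and the number of arrays limits the precision.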

Additional observations from a re-analysis of the deposited data

Results flagged for a closer look

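In 47 groups of 4 values of the 25 immediate early genes, the gap between the highest or lowest sample and its neighbour was divided by the range of the group. In 4 of them the result was above Dixon's 95% critical value, where chance alone gives about 1 in 20, or 2.35. FOS in saline 4 had the largest, at 0.939, but FOS, JUN, ZFP36 and DUSP1 were selected on this spread, so their values, and the count of 4 that includes FOS, are a description and no test. EGR1 was highest in saline 4 at 0.880, and NFKBIA, an inhibitor of NF-kappa B, was highest in saline 4 at 0.839. HOMER1, a synaptic scaffold gene, was lowest in dexamethasone 4 at 0.878. JUN in saline 4 did not pass, with saline 3 between it and the others. The groups pool dyes, and Cy5 samples of one group can differ from Cy3 samples for that reason.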

How the results depend on the processing

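The count of called genes was 7 (4 higher, 3 lower) and moved with most choices: 14 (6 higher, 8 lower) with processed signals, 20 (7 higher, 13 lower) with scaling to the 75th percentile, 3 with probes above background in all 8 samples, 3 with no filter, 21 with no array block, 16 with no dye term and 4 with the deposited table. Leaving out 1 sample gave 0 to 11, with 0 without dexamethasone 2 (limma, 1304 at an unadjusted p under 0.05), 1 without saline 4 or dexamethasone 3, 3 without dexamethasone 1 and 11 without saline 2. Leaving out an array gave 2245 without saline 1 and 2, 169 without saline 3 and 4, 0 without dexamethasone 1 and 2 (limma, 582 at an unadjusted p under 0.05) and 7 without dexamethasone 3 and 4. The cause of these moves was not tested.

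FOS, JUN and ZFP36 differed by less than 0 under every alternative run. Without saline 1 and 2 the difference of JUN was -1.28 and that of DUSP1 -0.73, and without saline 3 and 4 they were -0.25 and 0.38; DUSP1 was also above 0 with processed signals, at 0.01. Leaving out 1 sample gave -1.51 to -0.19 for FOS and -0.47 to 0.03 for DUSP1. The SD within saline minus the SD within dexamethasone, 1.48 for FOS, was -0.11 without saline 4 (the range over samples left out being -0.11 to 1.76) and -0.11 without saline 3 and 4. For JUN, 0.39 became -0.0105 with the deposited table and -0.22 without saline 3 and 4. For DUSP1, 0.42 became 1.25 with processed signals, 0.081 with scaling to the 75th percentile, -0.064 with the deposited table, -0.17 without saline 1 and 2 and -0.055 without saline 3 and 4. All these SDs pool the dyes.

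The labels do not say that a replicate number pairs samples, and no pair of one number showed a positive correlation of its deviations (-0.24 to -0.14, where centring within dye pushes such values below 0). The replicate block gave 7 called genes and the same member differences, with FOS at -1.07. DUSP1, and FOS in saline 3, are limited by signal near background.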
